A study of Schizosaccharomyces pombe with 24 samples.

Results

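In fission yeast (Schizosaccharomyces pombe), 4 protein-coding genes are described, each together with a non-coding RNA annotated on its opposite strand. They are arg4 (SPBC215.08c) with SPNCRNA.1659, SPBC1271.07c with SPNCRNA.1346, SPAP8A3.07c with SPNCRNA.1072, and hhy1 (SPAC1F8.04c) with SPNCRNA.605. These 8 genes, of 6988 in the count table, were chosen because in the mutant pla1-Y86L the coding gene was lower and the paired antisense RNA higher than in wild type. That comparison is therefore given as a description, without a test. Tests were confined to the other 6 mutants.

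PolyA+ RNA of haploid cells in log phase in YES medium at 30 °C was sequenced in 24 libraries, 3 biological replicates for each of 8 groups. WT is h- with no marker named. The strains ysh1-L74F, pta1-T524M, msi2-G252E, pfs2-V180F and pfs2-E104A are h- and also carry asp1-WT::kanMX, a drug-resistance marker beside an intact asp1 gene. The strain pla1-Y86L::kanMX is h- and cft1-L249Q is h+ with no marker named. WT has neither marker. Against WT, the amino acid change and a kanMX marker can therefore not be told apart in 6 of the mutants. In cft1-L249Q the change and the mating type cannot. The strains with asp1-WT::kanMX share marker and mating type with each other.

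The mutated proteins belong to the cleavage and polyadenylation machinery, which cuts a nascent transcript at its 3′ end, adds the poly(A) tail and so ends the gene. Pla1 is the poly(A) polymerase and Ysh1 the endonuclease. Antisense RNAs arise when RNA polymerase II reads a gene from the opposite strand, from a start of its own or by running on from a neighbour. In fission yeast many are kept low by nuclear surveillance, and transcription across a promoter is known, at some genes, to lower the gene it crosses. By its title the series concerns mutations of this machinery that suppress precocious transcription termination.

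arg4 encodes the arginine-specific carbamoyl-phosphate synthase, which supplies carbamoyl phosphate for arginine synthesis. SPAP8A3.07c is annotated as a phospho-2-dehydro-3-deoxyheptonate aldolase, the enzyme that opens the shikimate pathway to the aromatic amino acids. SPBC1271.07c is annotated as an N-acetyltransferase and hhy1 as a hydrolase. The antisense RNAs lie differently on their genes. In the ASM294v3 annotation, SPNCRNA.1659 covers the 5′ end of arg4 and reaches its coding part, SPNCRNA.1346 overlaps the 3′ end of SPBC1271.07c outside its coding part, SPNCRNA.1072 lies inside SPAP8A3.07c, and SPNCRNA.605 spans all of hhy1. The arg4 and SPBC1271.07c pairs are on chromosome II and the other 2 pairs on chromosome I. arg4 and SPBC1271.07c each overlap a further annotated antisense RNA, SPNCRNA.1658 and SPNCRNA.1345. Neither of these was higher in pla1-Y86L than in WT, and both are described with the neighbours.

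The libraries held 19.4 to 29.3 M counted reads each (median 25.5 M), and replicates varied with a common biological coefficient of variation of 4.90%. Levels below are counts per 1000000 reads of the scaled library (CPM), not divided by gene length, so they are compared between libraries and not between genes. The mRNA of pla1 itself was at 149.7 ± 3.48 CPM in WT (SD, n = 3) and 35.3 ± 0.942 in pla1-Y86L, a log2 fold change of -2.08 ± 0.04 (SE). The coding change is not visible in a gene count. A count is a share of the polyA+ RNA of a whole culture. A change in some cells and a smaller change in all cells can therefore not be told apart. Pla1 makes the tail by which this RNA was selected. Whether tails or their capture differed between strains was not tested. The library kit keeps strand, but the strand setting of the counting is not given in the sources used here. Of protein-coding genes lying wholly inside a counted non-coding gene of the other strand, 156 could be examined. Their median was 23314.5 reads over the 24 libraries, and none of the 156 was at 0 reads. In its default mode HTSeq leaves reads shared by overlapping genes unassigned when strand is ignored, but the mode too is not given. hhy1, which lies inside SPNCRNA.605, is among the genes whose counts depend on these settings.

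In pla1-Y86L all 4 coding genes were lower and all 4 antisense RNAs higher than in WT. In each of the 8 genes the WT and pla1-Y86L libraries did not overlap. The genes were chosen on this comparison, in which 64.6% of the 6287 genes tested passed an adjusted p of 0.05 by edgeR's test. The share of all genes without such overlap was not counted. arg4 was at 1138, 1156 and 1124 CPM in the WT libraries and at 461, 476 and 447 CPM in pla1-Y86L, a log2 fold change of -1.31 ± 0.05 (SE). SPNCRNA.1659 was at 3.58, 4.97 and 4.42 CPM in WT and at 8.41, 9.89 and 10.6 CPM in pla1-Y86L, a log2 fold change of 1.15 ± 0.13. The gene and its antisense RNA thus moved apart by similar amounts on the log scale.

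SPBC1271.07c was at 78.6, 84.6 and 66.8 CPM in WT and at 22.5, 22.4 and 22.8 CPM in pla1-Y86L, a log2 fold change of -1.76 ± 0.10. Its antisense RNA SPNCRNA.1346 had 2, 4 and 5 reads in WT and 31, 33 and 34 reads in pla1-Y86L, 8.41-fold higher in the fit (SE 0.40 on the log2 scale). This was the largest fold change among the 8 genes and rests on the fewest reads. SPNCRNA.1346 had 236 reads in all 24 libraries together, and at least 10 in 8 of them.

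SPAP8A3.07c was at 1261, 1260 and 1261 CPM in WT and at 603, 623 and 612 CPM in pla1-Y86L, a log2 fold change of -1.04 ± 0.05. SPNCRNA.1072 had 21, 24 and 22 reads in WT and 68, 50 and 88 reads in pla1-Y86L, a log2 fold change of 1.57 ± 0.30. The 3 WT libraries of the coding gene were within 1 CPM of each other after rounding, while the antisense RNA varied more in pla1-Y86L, from 50 to 88 reads.

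hhy1 had 57, 66 and 70 reads in WT and 29, 28 and 34 reads in pla1-Y86L, a log2 fold change of -1.12 ± 0.24. SPNCRNA.605 was at 11.5, 8.83 and 14.3 CPM in WT and at 23.1, 21.4 and 27.4 CPM in pla1-Y86L, a log2 fold change of 1.05 ± 0.16. hhy1 had the fewest reads of the 4 coding genes and SPNCRNA.605 the most of the 4 antisense RNAs. All 8 genes passed the filter on low counts, also when the pla1-Y86L libraries were left out of the filter.

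**Figure D1:**
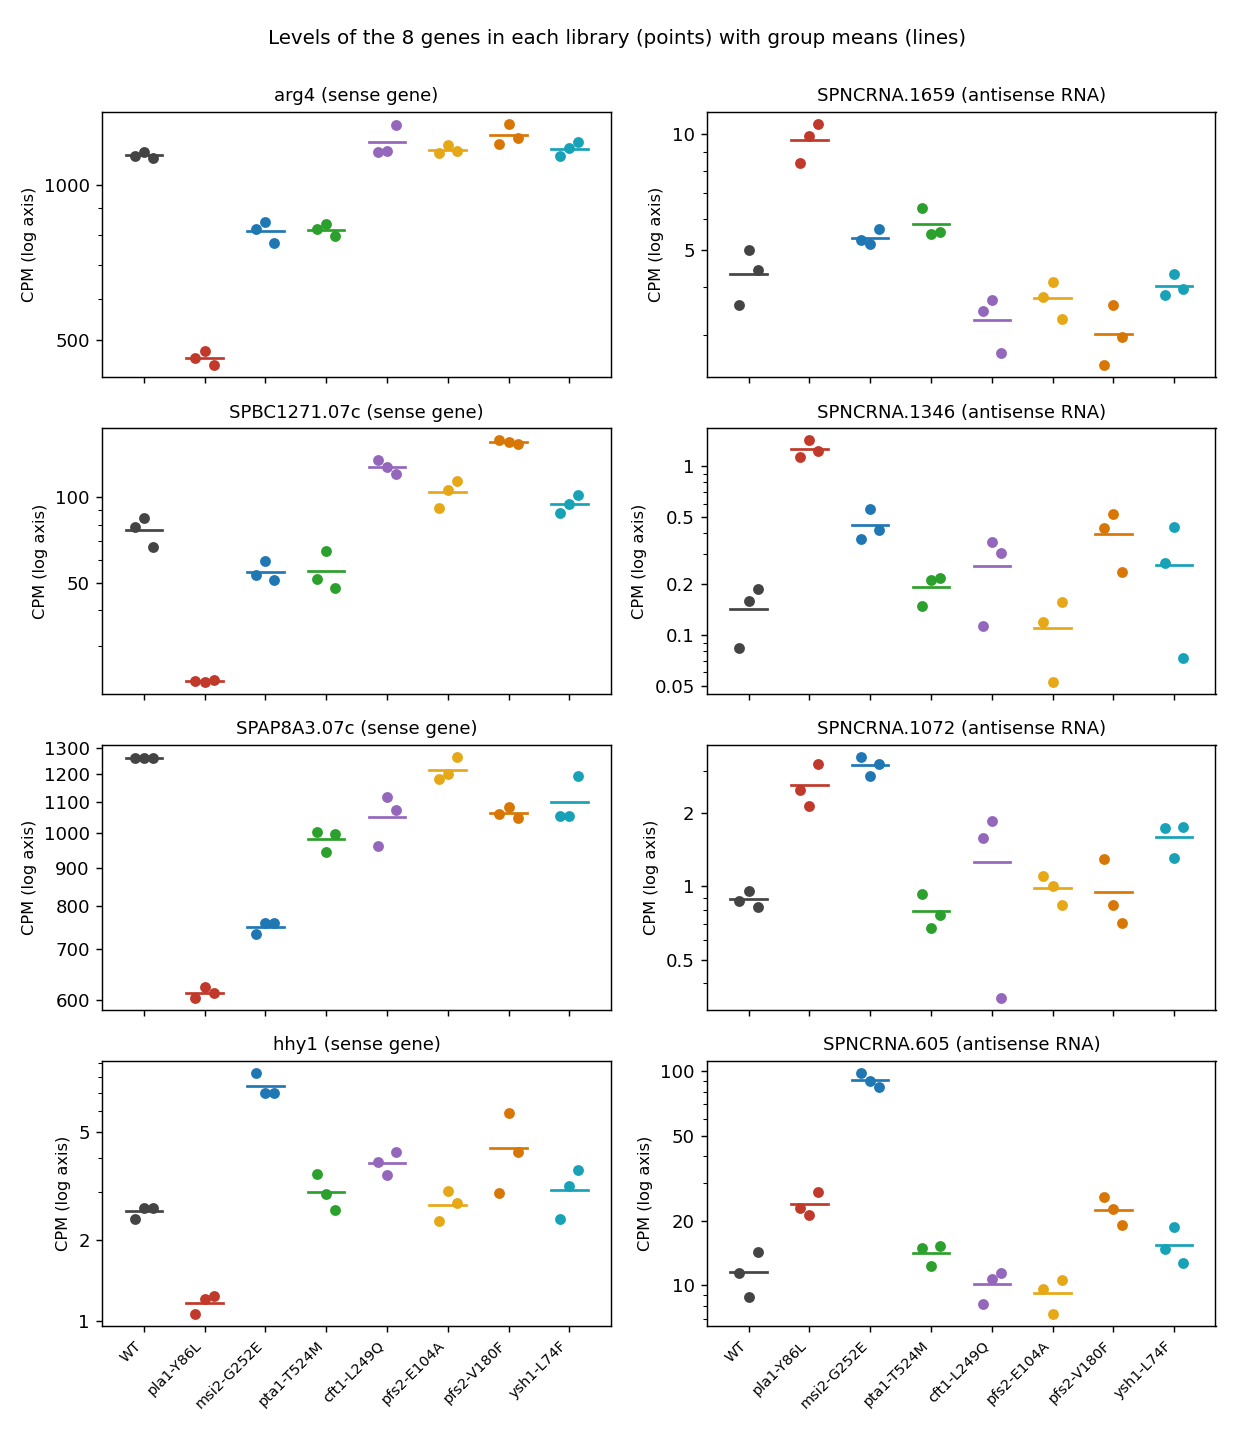
CPM of the 8 genes (log axis) in each of the 24 libraries (points) with the mean of each group (lines), the coding gene on the left and its antisense RNA on the right. In pla1-Y86L, on which the genes were chosen, each coding gene is below and each antisense RNA above the WT libraries. In msi2-G252E hhy1 is above WT together with SPNCRNA.605.

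In the comparison that chose them, the 4 pairs stand at the edge of a broad distribution over the whole annotation. In pla1-Y86L 64.6% of the 6287 genes tested passed an adjusted p of 0.05 against WT. The 8 members were chosen on this comparison, so no test of them is given there. Of all coding genes in annotated pairs 32.4% were called lower there, and of all antisense RNAs 38.4% were called higher. Of 691 annotated pairs in which the overlap covered at least 50% of the shorter gene, 12.4% had the antisense RNA called higher and the coding gene called lower. Both strands were called higher in 89 of these pairs, beside 86 that diverged in this way. The coding gene was called lower in 32.45% of pairs with the antisense RNA called higher and in 31.92% of the others. A fold of at least 2 in both opposite directions was met by 4 pairs, the 4 described here. The antisense RNA was at least 2-fold higher in 75 of the 691 pairs and the coding gene at least 2-fold lower in 14. Among the 691 changes of the antisense to sense ratio, the SPBC1271.07c pair ranked at 1 with a log2 change of 4.83, the SPAP8A3.07c pair at 3 with 2.61, the arg4 pair at 5 with 2.46 and the hhy1 pair at 13 with 2.18. The 2-fold count and the ranks use the comparison on which the pairs were chosen, so they are a description. The members nearest to a 2-fold change were SPAP8A3.07c at -1.04 and SPNCRNA.605 at 1.05. Pairs just short of it were sst1 at -0.82 with SPNCRNA.693 at 1.58, ctr5 at -0.82 with SPNCRNA.923 at 1.30, gud1 at -1.03 with SPNCRNA.1143 at 0.85, and put4 at -0.83 with SPNCRNA.1091 at 0.92 (log2 fold changes).

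**Figure D2:**
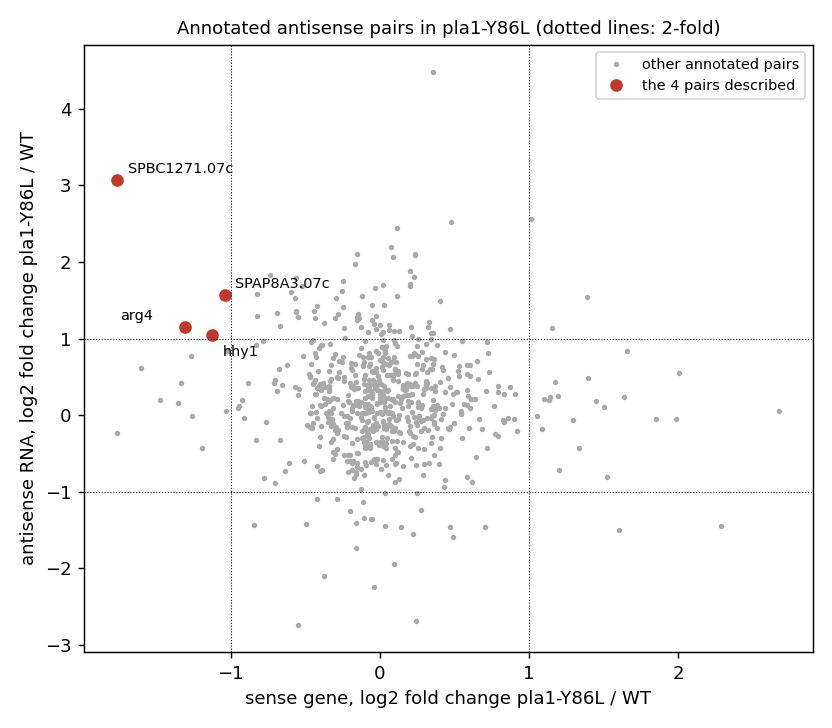
Log2 fold change in pla1-Y86L against WT of the coding gene (x axis) and its antisense RNA (y axis) for 691 annotated pairs, with dotted lines at 2-fold. The 4 pairs described, in red and labelled by the coding gene, are the ones beyond both lines in the upper left corner. They were chosen on this comparison, and SPBC1271.07c lies farthest out.

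The other 6 mutants were compared with WT, whose libraries also entered the choice of the 8 genes. The number of members called was 7 of 8 in msi2-G252E, where 58.8% of all genes were called, and 7 of 8 in pfs2-V180F, where 48.1% were. It was 4 of 8 in cft1-L249Q, with 43.3% of all genes, and 4 of 8 in pta1-T524M, with 38.4%. In ysh1-L74F 2 of 8 were called, with 14.4% of all genes, and in pfs2-E104A 1 of 8, with 34.2%. Directions differed between mutants, and the shares beside them are over all coding genes or all antisense RNAs of annotated pairs. In msi2-G252E 3 coding genes fell (30.1% of coding genes lower), 1 rose (30.4% higher) and 3 antisense RNAs rose (49.6% higher). The median log2 fold change was -0.49 over the 4 coding genes and 1.71 over the 4 antisense RNAs, beside 0.00 over all genes tested. Over the 691 annotated pairs the medians were 0.02 for coding genes and 0.33 for antisense RNAs. In pta1-T524M 3 coding genes fell (18.1% lower) and 1 antisense RNA rose (19.3% higher). The medians were -0.42 and 0.35, beside 0.01 and -0.04 over the annotated pairs. In pfs2-V180F 3 coding genes rose (21.8% higher) and 1 fell (27.8% lower), while 2 antisense RNAs rose (33.3% higher) and 1 fell (8.85% lower). The medians were 0.47 and 0.51, beside -0.02 and 0.16 over the annotated pairs. In cft1-L249Q 2 coding genes rose (21.5% higher), 1 fell (22.6% lower) and 1 antisense RNA fell (10.6% lower). In ysh1-L74F 1 coding gene rose (7.06% higher) and 1 fell (8.68% lower). In pfs2-E104A 1 coding gene rose (16% higher).

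A pair with the antisense RNA called higher and the coding gene called lower was seen 2 times in msi2-G252E, the SPBC1271.07c and SPAP8A3.07c pairs, where 14.6% of all pairs did the same. The arg4 pair did so in pta1-T524M, where 3.76% of pairs did. None of the 4 pairs did so in pfs2-V180F (11.7% of pairs), cft1-L249Q (8.1%), pfs2-E104A (5.07%) or ysh1-L74F (1.74%) by edgeR's test. At an unadjusted p under 0.05 the number was 1 in ysh1-L74F, the SPAP8A3.07c pair, and 0 in the other 3.

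The 6 mutants were also compared among themselves, without the group means of WT and pla1-Y86L that the choice of genes used. Libraries of those groups entered the estimates of scaling and spread only. cft1-L249Q, which is h+ with no marker named, is among the 6 mutants, so mating type and marker also differ within this comparison. All 8 members differed among the 6 mutants by edgeR's joint test, as did 86.2% of all genes. The adjusted p ran from 6.22e-15 for SPNCRNA.605 to 0.0209 for SPNCRNA.1346. The last of these was above 0.05 without msi2-G252E replicate 2, at 0.0535, and without pfs2-E104A replicate 2, at 0.0521. The ratio of antisense to sense also differed among the 6 mutants in each of the 4 pairs by limma's joint test, with adjusted p of 3.13e-09 for the arg4 pair, 6.19e-06 for the hhy1 pair, 1.69e-05 for the SPAP8A3.07c pair and 0.000126 for the SPBC1271.07c pair. Of all 691 pairs, 79.9% differed in the same test.

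**Figure D3:**
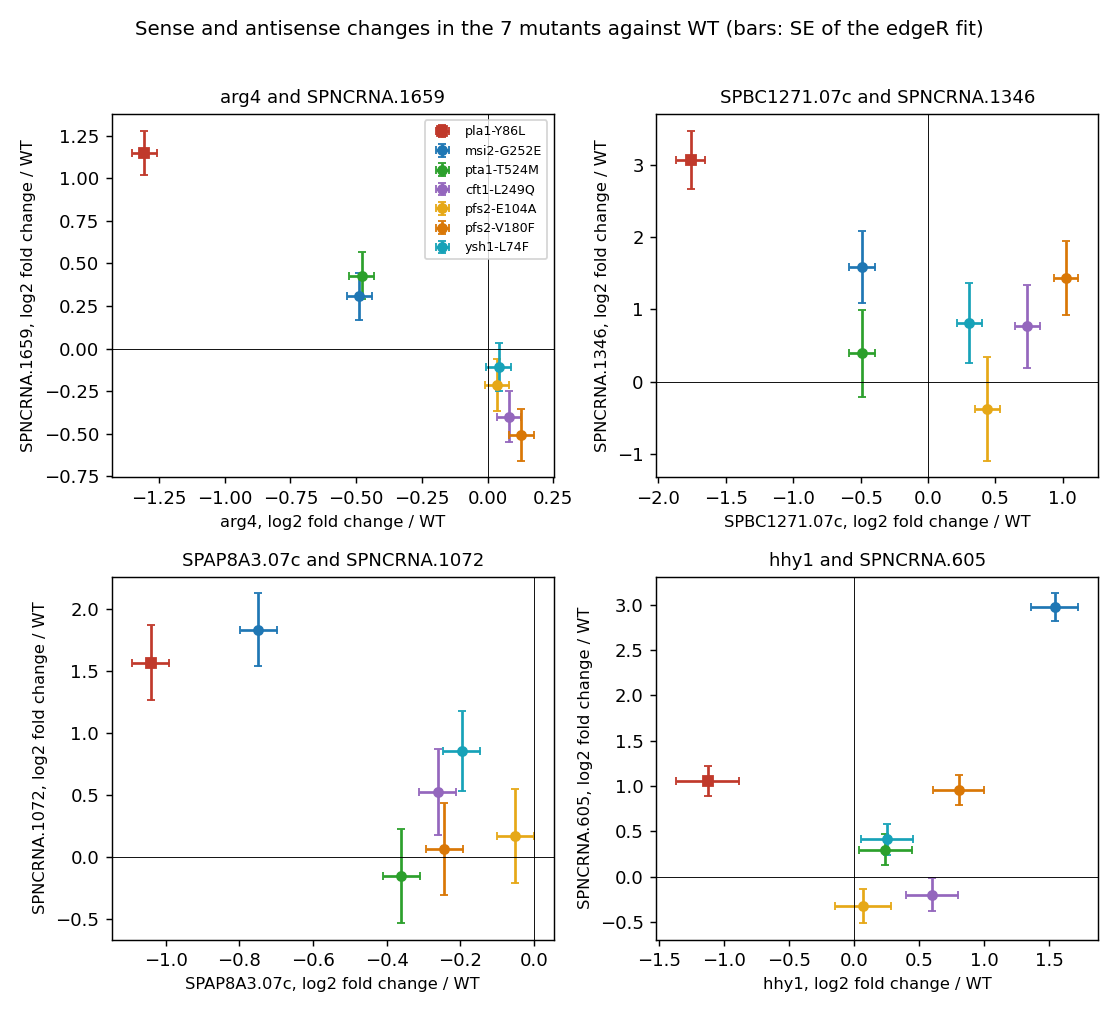
Log2 fold changes against WT of the coding gene (x axis) and its antisense RNA (y axis) in the 7 mutants, with bars for the SE of the edgeR fit and pla1-Y86L as a square. The arg4 points run from upper left to lower right, whereas msi2-G252E and pfs2-V180F lie in the upper right of the hhy1 panel, where both members of the pair are above WT.

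In the arg4 pair, msi2-G252E and pta1-T524M lay between WT and pla1-Y86L on both strands. arg4 was at 819, 848 and 770 CPM in msi2-G252E and at 822, 838 and 794 CPM in pta1-T524M, all below the WT libraries and above those of pla1-Y86L. It fell by 0.49 ± 0.05 on the log2 scale in msi2-G252E (adjusted p = 8.97e-09) and by 0.48 ± 0.05 in pta1-T524M (adjusted p = 4.31e-08). In cft1-L249Q, pfs2-E104A and ysh1-L74F the libraries overlapped those of WT, with log2 fold changes between 0.04 and 0.08 that were not called. In pfs2-V180F arg4 was at 1196, 1308 and 1233 CPM, all above WT, and rose by 0.13 ± 0.05 (adjusted p = 0.0287). That call did not hold without WT replicate 1 (adjusted p = 0.0571), WT replicate 3 (0.0736) or pfs2-V180F replicate 2 (0.135).

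SPNCRNA.1659 stood in nearly the reverse order. It was at 6.43, 5.48 and 5.56 CPM in pta1-T524M and at 5.28, 5.16 and 5.65 CPM in msi2-G252E, in both above all WT libraries. It rose by 0.43 ± 0.14 in pta1-T524M (adjusted p = 0.0171), a call lost without WT replicate 1 (0.097) or pta1-T524M replicate 1 (0.08). In msi2-G252E its log2 fold change of 0.31 ± 0.14 was not called (adjusted p = 0.0614), and was 0.43 without WT replicate 2 (adjusted p = 0.022). In pfs2-V180F it fell by 0.51 ± 0.15 (adjusted p = 0.00861), lost without WT replicate 2 (0.0599) or pfs2-V180F replicate 1 (0.051), and in cft1-L249Q by 0.40 ± 0.15 (adjusted p = 0.0361). The call in cft1-L249Q was lost without WT replicate 2 (0.172), WT replicate 3 (0.0891), cft1-L249Q replicate 1 (0.0568) or cft1-L249Q replicate 3 (0.164), and with only WT and cft1-L249Q in the fit (0.0993).

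Without WT in the comparison the opposition was again measured. Against the mean of the other 5 mutants, arg4 was lower by a log2 difference of -0.45 ± 0.04 in msi2-G252E (adjusted p = 7.53e-10) and of -0.44 ± 0.04 in pta1-T524M (adjusted p = 2.1e-09). In the same comparison SPNCRNA.1659 was higher by 0.47 ± 0.11 in msi2-G252E (adjusted p = 0.000644) and by 0.61 ± 0.10 in pta1-T524M (adjusted p = 4e-05). Of all genes, 60.7% were called in that comparison for msi2-G252E and 49.1% for pta1-T524M. In pfs2-V180F, where 38.8% of all genes were called, arg4 was higher by 0.29 ± 0.04 (adjusted p = 1.17e-06) and SPNCRNA.1659 lower by -0.51 ± 0.12 (adjusted p = 0.002). Over the 6 group means of log2 CPM, with WT and pla1-Y86L left out, the correlation of gene and antisense RNA was -0.95. These points share their libraries, and the other 3 pairs gave -0.06 for SPBC1271.07c, -0.74 for SPAP8A3.07c and 0.92 for hhy1 over the same 6 means.

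The ratio puts both strands in 1 number. There were 3.15, 4.30 and 3.93 SPNCRNA.1659 reads per 1000 arg4 reads in WT and 18.2, 20.8 and 23.7 in pla1-Y86L. The group mean was 7.12 ± 0.655 (SD, n = 3) in pta1-T524M, 6.62 ± 0.649 in msi2-G252E and 2.41 ± 0.327 in pfs2-V180F. By limma's test over all pairs the log2 ratio was higher than in WT by 0.91 ± 0.15 in pta1-T524M (adjusted p = 6.84e-05) and by 0.81 ± 0.15 in msi2-G252E (adjusted p = 8.19e-05), and lower by -0.64 ± 0.15 in pfs2-V180F (adjusted p = 0.00122). In cft1-L249Q it was lower by -0.47 ± 0.15 (adjusted p = 0.0156), lost without WT replicate 2 (0.0851), WT replicate 3 (0.0517) or cft1-L249Q replicate 3 (0.118).

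Among the 4 coding genes SPBC1271.07c had the widest range over the 6 mutants, 1.51 on the log2 scale. It was at 158, 156 and 153 CPM in pfs2-V180F, 135, 128 and 120 CPM in cft1-L249Q, and 91.8, 106 and 114 CPM in pfs2-E104A, all above the WT libraries. It rose by 1.02 ± 0.09 (adjusted p = 5.4e-09), 0.74 ± 0.09 (adjusted p = 1.13e-06) and 0.44 ± 0.09 (adjusted p = 0.000935) in these 3 mutants, in that order. It fell in the same 2 mutants as arg4, by 0.49 ± 0.10 in msi2-G252E (53.1, 59.6 and 51.1 CPM; adjusted p = 0.00014) and by 0.49 ± 0.10 in pta1-T524M (51.5, 64.9 and 47.9 CPM; adjusted p = 0.000337). In ysh1-L74F it rose by 0.31 ± 0.09 (adjusted p = 0.0284), a call lost without WT replicate 1 (0.0535), WT replicate 3 (0.163), ysh1-L74F replicate 2 (0.0751) or ysh1-L74F replicate 3 (0.0946).

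Its antisense RNA SPNCRNA.1346 did not mirror these levels. It had 10, 14 and 11 reads in msi2-G252E and 9, 15 and 6 reads in pfs2-V180F, above the 2 to 5 reads of WT in mutants where the coding gene moved in opposite directions. It rose by 1.59 ± 0.50 in msi2-G252E (adjusted p = 0.00863) and by 1.43 ± 0.51 in pfs2-V180F (adjusted p = 0.0251). The call in pfs2-V180F was lost without WT replicate 1 (0.0903), pfs2-V180F replicate 1 (0.051) or pfs2-V180F replicate 2 (0.129). In the remaining 4 mutants each library had 1 to 12 reads and no difference was detectable at this depth. The log2 ratio of the pair was higher in msi2-G252E by 1.75 ± 0.39 (adjusted p = 0.000567 by limma) and was called in none of the other 5 mutants. There were 8.18 ± 1.15 SPNCRNA.1346 reads per 1000 SPBC1271.07c reads in msi2-G252E (SD, n = 3), 1.92 ± 0.874 in WT and 55.9 ± 6.63 in pla1-Y86L.

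SPAP8A3.07c was highest in WT and lower in nearly every mutant library, with 1 pfs2-E104A library, at 1266 CPM, above the WT libraries. It was at 734, 758 and 759 CPM in msi2-G252E, where it fell by 0.75 ± 0.05 (adjusted p = 1.96e-11). It fell by 0.36 ± 0.05 in pta1-T524M (adjusted p = 5.94e-06), by 0.26 ± 0.05 in cft1-L249Q (adjusted p = 0.000231) and by 0.24 ± 0.05 in pfs2-V180F (adjusted p = 0.000368). In ysh1-L74F it fell by 0.20 ± 0.05 (adjusted p = 0.0115), lost without ysh1-L74F replicate 1 (0.0881) or replicate 2 (0.0837), and in pfs2-E104A its log2 fold change of -0.05 was not called.

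In msi2-G252E SPNCRNA.1072 reached the levels it had in pla1-Y86L. It had 92, 72 and 84 reads in msi2-G252E, or 3.42, 2.86 and 3.21 CPM, above WT at 0.825 to 0.955 CPM and overlapping pla1-Y86L at 2.15 to 3.20 CPM. It rose in msi2-G252E by 1.83 ± 0.30 (adjusted p = 1.39e-05), and it was higher there by 1.54 ± 0.20 than the mean of the other 5 mutants (adjusted p = 7.99e-07). In ysh1-L74F it had 52, 36 and 48 reads and a log2 fold change of 0.85 ± 0.33 that was not called (adjusted p = 0.0798), though it was called with only WT and ysh1-L74F in the fit (adjusted p = 0.032). In cft1-L249Q 1 library decided the result. Replicates 1 and 2 had 42 reads each and replicate 3 had 8, and the log2 fold change went from 0.52 ± 0.35 (adjusted p = 0.236) to 0.95 ± 0.25 (adjusted p = 0.00388) without replicate 3.

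The log2 ratio of SPNCRNA.1072 to SPAP8A3.07c was higher in msi2-G252E by 2.50 ± 0.35 (adjusted p = 2.4e-06 by limma). There were 0.694, 0.758 and 0.654 SPNCRNA.1072 reads per 1000 SPAP8A3.07c reads in WT and 4.66, 3.77 and 4.22 in msi2-G252E, within the 3.45 to 5.22 of pla1-Y86L. In ysh1-L74F the ratio change of 0.99 ± 0.35 was not called (adjusted p = 0.0606). In cft1-L249Q it was 0.47 ± 0.35 (adjusted p = 0.307), and 1.18 ± 0.19 without replicate 3 (adjusted p = 3.48e-05).

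**Figure D4:**
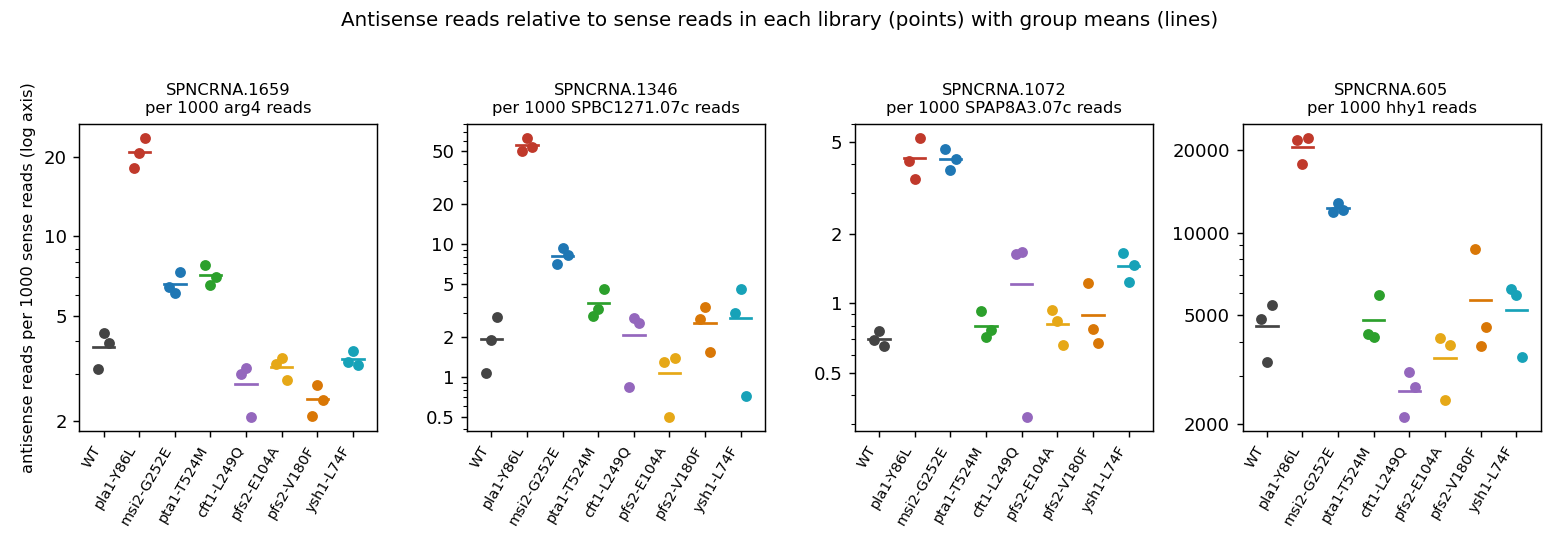
Antisense reads per 1000 reads of the coding gene (log axis) in each of the 24 libraries (points) with group means (lines), 1 panel for each pair and not corrected for gene length. In pla1-Y86L, and likewise in msi2-G252E, all 4 ratios are above the WT libraries. So are the arg4 and SPBC1271.07c ratios in pta1-T524M and the SPAP8A3.07c ratio in ysh1-L74F, of which the arg4 ratio was called. The pairs were chosen on pla1-Y86L, and in msi2-G252E 42.4% of all 691 ratios were called higher.

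In the hhy1 pair both strands rose in 2 mutants, msi2-G252E and pfs2-V180F, as both strands of the SPBC1271.07c pair also did in pfs2-V180F. hhy1 had 223, 176 and 183 reads in msi2-G252E, or 8.29, 6.98 and 6.98 CPM, against 2.37 to 2.63 CPM in WT. It rose by 1.54 ± 0.18 in msi2-G252E (adjusted p = 1.69e-07), by 0.80 ± 0.19 in pfs2-V180F (adjusted p = 0.00157) and by 0.60 ± 0.20 in cft1-L249Q (adjusted p = 0.0182). The call in cft1-L249Q was lost without WT replicate 1 (0.0572) or cft1-L249Q replicate 3 (0.0615). Against the mean of the other 5 mutants hhy1 was higher in msi2-G252E by 1.15 ± 0.13 (adjusted p = 4.86e-08) and lower in pfs2-E104A by -0.62 ± 0.16 (adjusted p = 0.00369), where 45.1% of all genes were called in that comparison. In pla1-Y86L, at 1.06 to 1.23 CPM, hhy1 was below every other library.

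SPNCRNA.605 was at 98.2, 89.6 and 84.4 CPM in msi2-G252E, well above every library of the other groups, where it rose by 2.97 ± 0.15 (adjusted p = 1.53e-13). It was at 25.9, 22.7 and 19.1 CPM in pfs2-V180F, where it rose by 0.96 ± 0.16 (adjusted p = 4.91e-05) and overlapped the pla1-Y86L libraries. In pta1-T524M and ysh1-L74F its log2 fold changes of 0.30 ± 0.17 (adjusted p = 0.175) and 0.41 ± 0.17 (adjusted p = 0.1) were not called. WT replicate 3, the highest WT library, bears on both. Without it they were 0.50 (adjusted p = 0.0421) and 0.60 (adjusted p = 0.0393), and without ysh1-L74F replicate 3 the value there was 0.53 (adjusted p = 0.0425).

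Because the antisense RNA rose more than hhy1, the ratio was higher in msi2-G252E too, by 1.48 ± 0.28 on the log2 scale (adjusted p = 9.06e-05 by limma). In pfs2-V180F the ratio change of 0.27 ± 0.28 was not called (adjusted p = 0.454). In cft1-L249Q the ratio was lower by -0.75 ± 0.28 (adjusted p = 0.036), a call lost without WT replicate 1 (0.0955), WT replicate 3 (0.14), cft1-L249Q replicate 1 (0.146) or cft1-L249Q replicate 3 (0.0508).

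Side by side, all 4 ratios were called higher than WT in msi2-G252E, where 42.4% of all 691 ratios were called higher. Each of the 4 stayed called when any 1 library of WT or msi2-G252E was left out. In pta1-T524M 1 of the 4 was called higher, with 16.8% of all ratios. None of the 4 was called higher in pfs2-V180F (32.3% of all ratios), cft1-L249Q (25.8%), pfs2-E104A (18.7%) or ysh1-L74F (11.6%). At an unadjusted p under 0.05 in limma's test, 1 was higher in ysh1-L74F and 0 in the other 3. Lower ratios were called for 2 of the 4 pairs in cft1-L249Q, the arg4 and hhy1 pairs, where 11.6% of all ratios were called lower, and for the arg4 pair in pfs2-V180F, where 10.6% were.

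The neighbours of each pair were examined in the same fit, and values for pla1-Y86L are again descriptive. At hhy1, the siderophore iron transporter gene str3 lies beyond the start of SPNCRNA.605 and points away from it, on the strand of hhy1. str3 was at 0.883 ± 0.776 CPM in WT (SD, n = 3) and 280.3 ± 42.9 CPM in msi2-G252E, and rose by 8.26 ± 0.33 (adjusted p = 1.66e-15). It also rose in pfs2-V180F, by 2.09 ± 0.55 (adjusted p = 0.00304), and its log2 fold change in pla1-Y86L was 2.64 ± 0.50. WT libraries of str3 held 7 to 47 reads and pla1-Y86L libraries 64 to 290. The value in pla1-Y86L was 1.79 without pla1-Y86L replicate 3 and 3.66 without WT replicate 3. In msi2-G252E it was 9.29 without WT replicate 3 and 7.88 without WT replicate 1, and in pfs2-V180F it was 3.11 and 1.70. In all 3 of these mutants SPNCRNA.605 was also higher than in WT. SPNCRNA.604, which overlaps the pair on the strand of hhy1, rose by 2.58 ± 0.18 in msi2-G252E (adjusted p = 2.98e-11) and stood at 1.27 ± 0.20 in pla1-Y86L. Reads of hhy1 and of SPNCRNA.604 share a strand, and their part in each other's counts was not tested. SPNCRNA.606, on the far side, had log2 fold changes of 0.17 in msi2-G252E and -0.14 in pla1-Y86L, neither called.

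At SPBC1271.07c the next gene upstream on the same strand, SPBC1271.08c (an uncharacterized protein), moved with it. It rose in cft1-L249Q by 1.38 ± 0.15, in pfs2-V180F by 1.28 ± 0.15, in pfs2-E104A by 0.71 ± 0.16 and in ysh1-L74F by 0.64 ± 0.16, with adjusted p of 0.0081 or less. The call in ysh1-L74F did not hold without WT replicate 3 (0.0543). It fell in msi2-G252E by 0.48 ± 0.17 (adjusted p = 0.0164), lost without WT replicate 1 (0.0507), WT replicate 2 (0.104) or msi2-G252E replicate 3 (0.0785), and its log2 fold change in pla1-Y86L was -0.55 ± 0.17. In pta1-T524M, where SPBC1271.07c fell, SPBC1271.08c had -0.11 ± 0.16 and was not called. SPNCRNA.1345 is another non-coding RNA overlapping the pair on the antisense strand. It was at 2.87 ± 0.394 CPM in WT (SD, n = 3) and 2.43 ± 0.0608 CPM in pla1-Y86L. Its log2 fold change there was -0.24 ± 0.17 and was not called, opposite in sign to SPNCRNA.1346. SPNCRNA.1346 was at 0.143 CPM in WT and 1.26 CPM in pla1-Y86L. In msi2-G252E SPNCRNA.1345 fell by 0.43 ± 0.17 (adjusted p = 0.0346), again opposite in sign to SPNCRNA.1346. That call was lost without WT replicate 1 (0.0752) or 2 (0.166) and without msi2-G252E replicate 2 (0.103) or 3 (0.114). In pta1-T524M SPNCRNA.1345 fell by 0.73 ± 0.18 (adjusted p = 0.00234). The highest adjusted p there was 0.0224 when 1 library was left out.

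mug96, beside SPBC1271.07c, and SPNCRNA.139, which overlaps the hhy1 pair, had too few reads to be tested. Around the other pairs the neighbours differed less. In pla1-Y86L the log2 fold changes beside arg4 were 0.20 for pdp2 and 0.10 for odr1. erg10 (acetyl-CoA acetyltransferase of sterol synthesis), which overlaps the pair on the strand of arg4, had -0.06. SPNCRNA.1658, which overlaps the pair on the antisense strand, had -0.40, opposite in sign to SPNCRNA.1659. It was at 50.1 ± 2.81 CPM in WT (SD, n = 3) and 38.0 ± 3.33 CPM in pla1-Y86L. Beside SPAP8A3.07c the log2 fold changes in pla1-Y86L were 0.05 for ski7, which bridges the Ski complex and the exosome, and 0.32 for SPNCRNA.525. uaf2 (a splicing factor subunit), which overlaps that pair on the antisense strand, had 0.37. By edgeR's test pdp2, odr1 and uaf2 were called higher and SPNCRNA.1658 lower in pla1-Y86L, where 64.6% of all genes were called. In msi2-G252E, called changes among these 7 neighbours were limited to SPNCRNA.1658, which rose by 0.32 ± 0.06 (adjusted p = 0.000121).

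arg4 did not move alone among the genes listed with it. Of the 8 other genes listed for carbamoyl phosphate and arginine synthesis, all measured, 7 fell and none rose in pla1-Y86L, where 32.4% of all genes were called lower. The largest changes were in arg5, the small subunit partner of Arg4 in the synthase, which fell by 0.98 ± 0.04, in arg12 (argininosuccinate synthase), by 0.94 ± 0.05, in arg3 (ornithine carbamoyltransferase), by 0.62 ± 0.04, and in arg6 (acetylglutamate synthase), by 0.54 ± 0.03. Each was smaller in size than the change of arg4, which was chosen on this comparison. arg7 (argininosuccinate lyase) had -0.01 ± 0.06. ura1 is listed for its carbamoyl-phosphate synthase and is also an aspartate carbamoyltransferase. It is among the 7 that fell, by 0.52 ± 0.05. The list median was -0.54, beside 0.00 over all genes tested.

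Counts for the same 8 genes differed in direction between the other mutants. In pta1-T524M 7 of 8 fell and none rose (19.8% of all genes were lower), with a median of -0.25. In msi2-G252E 6 fell and 2 rose (29.5% lower), with a median of -0.22. In pfs2-V180F, where arg4 rose slightly, 5 rose and 1 fell (24.1% of all genes higher), led by arg12 at 0.45 ± 0.05 and arg5 at 0.45 ± 0.04. In cft1-L249Q 3 rose (22.3% higher), in ysh1-L74F 2 rose (7.57% higher), and in pfs2-E104A 3 rose and 2 fell (18.1% higher and 16.1% lower). None of these genes was chosen for an antisense RNA, and their own antisense strands were not examined.

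**Figure D5:**
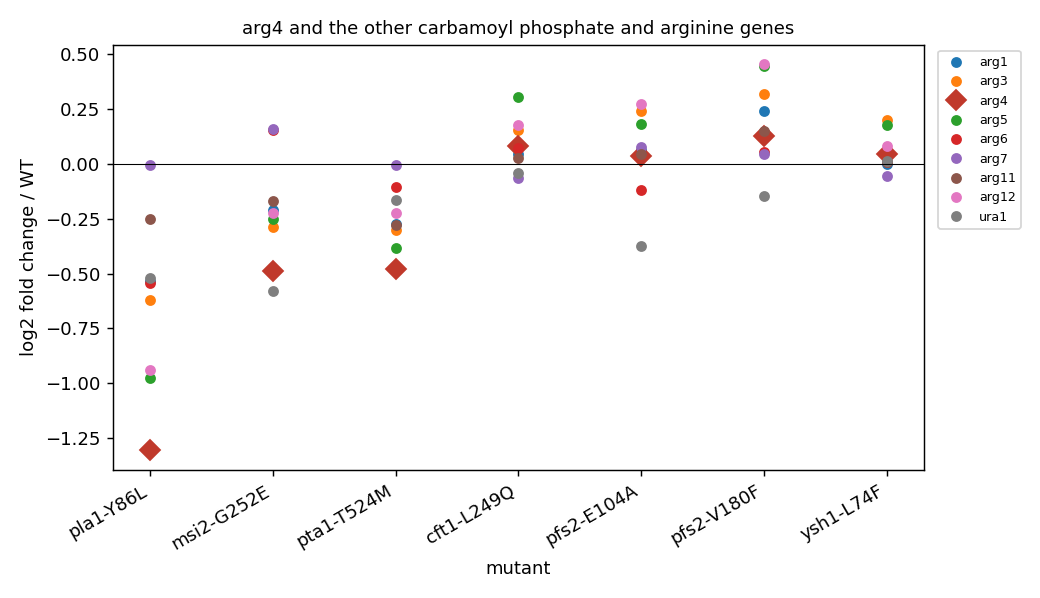
Log2 fold change against WT of arg4 (red diamonds) and the 8 other genes of carbamoyl phosphate and arginine synthesis (circles) in the 7 mutants. arg4 lies lowest in pla1-Y86L, on which it was chosen, and in pta1-T524M, with most of the list below 0. In pfs2-V180F most of the list is above 0.

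The genes listed with SPAP8A3.07c for aromatic amino acid synthesis were less uniform. Of 9 others measured, 5 fell and 3 rose in pla1-Y86L, where 32.2% of all genes were called higher, with a median of -0.13. aro2 (chorismate synthase) fell by 0.45 ± 0.05 and trp1 (anthranilate synthase) by 0.30 ± 0.03, whereas tyr1 (prephenate dehydrogenase) rose by 0.53 ± 0.04 and aro7 (chorismate mutase) by 0.32 ± 0.04. In msi2-G252E 8 of 9 fell and 1 rose (29.5% of all genes lower, 29.3% higher), with a median of -0.17. In pta1-T524M 4 fell and 1 rose (19.8% lower, 18.7% higher). In cft1-L249Q, pfs2-E104A, pfs2-V180F and ysh1-L74F, where 21%, 16.1%, 24% and 6.84% of all genes were called lower, none fell, and 3, 3, 2 and 0 rose, in that order, by edgeR's test. At an unadjusted p under 0.05, 1 gene was lower in cft1-L249Q and 0 in the other 3, and 2 genes were higher in ysh1-L74F. SPAP8A3.07c itself fell in cft1-L249Q, pfs2-V180F and ysh1-L74F.

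Genes whose 8 group means were most like those of the members were sought among 1209 genes whose means span at least 1 on the log2 scale. The mean profile of the 4 antisense RNAs was most like those of str1 (a siderophore iron transporter, r = 0.98), mug128 (0.98), php4 (the repressor that lowers iron-using genes, 0.98), SPNCRNA.516 (0.97) and SPNCRNA.1646 (0.97). The mean profile of the 4 coding genes was most like SPNCRNA.888 (r = 0.99), SPAC227.17c (0.98), SPAC323.07c (a MatE family transporter, 0.98), SPAC521.03 (a dehydrogenase, 0.98) and SPNCRNA.798 (0.97). These r are over 8 points that share their libraries and were the highest of many, so they are a description. The 8 points include WT and pla1-Y86L, on which the members were chosen. The mean of the coding genes also joins unlike profiles. In msi2-G252E hhy1 was at its highest, whereas arg4, SPBC1271.07c and SPAP8A3.07c were below WT.

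In the authors' deposited tables all 56 log2 fold changes of the 8 genes in the 7 mutants had the sign given here, and the largest gap was 0.045 for SPNCRNA.1346 in pla1-Y86L. Of 48 calls in the 6 other mutants 46 were the same. The authors' deposited tables called SPNCRNA.1659 in msi2-G252E (adjusted p = 0.0438) and SPNCRNA.1072 in ysh1-L74F (adjusted p = 0.0253), which edgeR's test did not.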

How the data were processed

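Raw counts of reads on each gene in 24 libraries were deposited by the authors. HISAT2 2.1.0, HTSeq 0.10.0, SAMtools, DESeq2 and build ASM294v2 are named in the submitters' processing notes. The authors also deposited log2 fold changes with p-values for each mutant against WT, per the file headers, and a mean normalized signal that was not used. The strand setting and annotation release of the counting are not given in the sources used here. The reference annotation, ASM294v3, matched 6836 of 6988 identifiers and served for names, neighbours and the 730 antisense pairs. No coordinates or sequences are given.

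Counts were filtered with filterByExpr, scaled by TMM and fitted in edgeR 4.0.16 (R 4.3.3) with 1 mean per group, 16 residual degrees of freedom, a quasi-likelihood F test and Benjamini-Hochberg adjustment over 6287 genes. A call is an adjusted p under 0.05, and the SE of a fold change is its log2 value divided by the square root of F. Antisense minus sense log2 CPM (prior count 2) was tested with limma 3.58.1 over 691 pairs. The scripts were tested on simulated data. The members and lists were chosen with earlier results of these data known. Genes named are the 8 members, pla1, the neighbours of each pair, the 5 genes most like each profile, and the 4 genes of each list with the largest changes. arg7, the only gene of its list not called in pla1-Y86L, and the pairs short of 2-fold were chosen after their values were seen. ura1 is named for its product. Counts of reads in 24 replicate pairs differed by 2.6 to 23.8 times sampling noise (chi-square per degree of freedom), so all libraries were counted separately.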

Additional observations from a re-analysis of the deposited data

How the results depend on the processing

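No called result of the members or pairs changed direction under any alternative run. DESeq2 size factors, the DESeq2 1.42.0 Wald test, no filter on low counts, a prior count of 0.5 and pairs with any overlap (1007 annotated) changed no call among the members and pairs tested, leaving out 1 test for which DESeq2 gave no adjusted p. Of 432 tests of members and ratios against WT with 1 library left out, 29 lost and 6 gained a call, each given beside its result. The neighbours without 1 library were an alternative chosen after seeing the data. Members called then ran from 3 to 4 in cft1-L249Q, 7 to 8 in msi2-G252E, 5 to 7 in pfs2-V180F, 3 to 5 in pta1-T524M and 0 to 2 in ysh1-L74F, and stayed at 1 in pfs2-E104A. Called ratios ran from 0 to 2 in cft1-L249Q and stayed at 4 in msi2-G252E, at 1 in pta1-T524M and pfs2-V180F, and at 0 in ysh1-L74F and pfs2-E104A. The joint adjusted p of SPNCRNA.1346 ran from 0.00708 to 0.0535. The descriptive values in pla1-Y86L ran, at their widest, from 2.82 to 3.32 for SPNCRNA.1346 and from 0.90 to 1.25 for SPNCRNA.605. With only WT and the mutant fitted, SPNCRNA.1346 could not be tested in 5 mutants. A replicate block raised the called ratios in ysh1-L74F from 0 to 1, the SPAP8A3.07c pair (0.99, adjusted p = 0.0458), and changed no other call. Replicate numbers are not said to pair libraries, and same-numbered libraries had correlations of -0.10 to 0.21 (median 0.016), 14 of 24 being highest with their own number. Read depth limits SPNCRNA.1346 and SPNCRNA.1072 most.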
